A study of Mus musculus with 18 samples.

Results

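The AP-1 genes described here are the 10 rows of the deposited gene count table with the symbols Fos, Fosb, Fosl1, Fosl2, Jun, Junb, Jund, Atf3, Batf3 and Maff, out of 23511 rows in all. They were taken by symbol, and the symbols were chosen with earlier results of these data known. Counts of members called are therefore descriptive. AP-1 is a transcription factor made of pairs of basic leucine zipper proteins. FOS proteins (Fos, Fosb, Fosl1, Fosl2) cannot pair with themselves and bind DNA with a JUN partner (Jun, Junb, Jund), whereas JUN proteins also pair with each other. Atf3 is a stress-induced relative that often represses inflammatory genes in macrophages, Batf3 is best known for the development of cross-presenting dendritic cells, and Maff is a small MAF protein that lacks an activation domain. Fos, Fosb, Jun, Junb and Atf3 are immediate-early genes: their transcripts appear within minutes of a stimulus through mitogen-activated protein (MAP) kinases and decay fast, and handling or digestion of tissue can induce them.

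RNA was sequenced from macrophages of the mouse peritoneal cavity, sorted by low or high Tim-4 (Tim-4low, Tim-4high), a phosphatidylserine receptor of resident cavity macrophages. Untreated mice that carried no tumor gave 3 libraries of each population (no-tumor). Mice with MC38-LG tumors in the peritoneal cavity (MC38 is a mouse colon carcinoma line) gave 3 of each with an isotype antibody and 3 of each with anti-Tim-4. Anti-Tim-4 was given on day 7 after tumor challenge and cells were collected on day 10, and the no-tumor mice were collected on the same day. The labels give neither strain, age nor the isotype's day, and nothing says that the 3 libraries of a group came from separate mice, so a p-value here reflects the spread between libraries alone, which may be technical. Since the no-tumor mice had no antibody, tumor and isotype antibody cannot be told apart in the comparison of isotype with no-tumor libraries.

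Library totals ran from 24530070 to 34110392 estimated counts. The macrophage genes Csf1r (1172 to 1814 CPM over the 18 libraries, where CPM is a count scaled by TMM to a common library size) and Adgre1, which encodes F4/80, were high in every library. Timd4, which encodes Tim-4, lay at 169 CPM or more in each Tim-4high library and at 109 CPM or less in each Tim-4low library. Summed B cell markers reached 602 and 2060 CPM in the no-tumor libraries 1 against at most 277 CPM in the other no-tumor libraries, and summed T and NK cell markers reached 130 and 146 CPM in the isotype libraries 3 against at most 29.1 CPM elsewhere. Summed monocyte markers were at 4230 and 3570 CPM in the anti-Tim-4 libraries 3 against 9330 to 12200 CPM in the other anti-Tim-4 libraries. In the no-tumor condition, library 3 was the highest of its group for 7 of the 10 AP-1 genes in Tim-4high and for 8 of 10 in Tim-4low cells. Over all tested genes those libraries were the highest for 30.8% and 34.9%. The main results that involve no-tumor libraries are therefore also given without both libraries 3. Those libraries were chosen by the AP-1 values themselves. Leaving them out favours larger changes with the tumor for genes high in them. Such fits show how far a result depends on them. Calls they add, and tumor calls they keep for genes high in those libraries, are no support. In bulk samples, fewer cells that express a gene and less RNA per cell cannot be told apart.

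The stretch before the transcription start is shown for Fos, Fosb, Junb and Jun, the members for which immediate-early induction is best described, since cyclic AMP response elements (CRE) near the start are textbook elements of this gene class. Each line gives the 250 bases before the start in RefSeq on GRCm38.p6, read 5′ to 3′ on the gene's strand. Capitals mark TGACG (the core of a CRE), TATAAA or TGACATCA (a site known from the Jun promoter).
Fos: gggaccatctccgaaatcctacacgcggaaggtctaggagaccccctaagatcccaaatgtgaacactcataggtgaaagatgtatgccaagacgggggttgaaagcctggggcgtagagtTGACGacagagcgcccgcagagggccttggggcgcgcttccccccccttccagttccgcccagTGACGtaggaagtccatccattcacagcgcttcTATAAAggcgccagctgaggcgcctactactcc
Fosb: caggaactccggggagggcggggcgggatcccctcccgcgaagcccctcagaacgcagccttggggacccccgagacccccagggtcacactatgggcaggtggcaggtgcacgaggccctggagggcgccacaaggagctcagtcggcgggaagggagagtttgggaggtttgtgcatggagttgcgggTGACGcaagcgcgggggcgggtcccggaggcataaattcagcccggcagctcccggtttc
Junb: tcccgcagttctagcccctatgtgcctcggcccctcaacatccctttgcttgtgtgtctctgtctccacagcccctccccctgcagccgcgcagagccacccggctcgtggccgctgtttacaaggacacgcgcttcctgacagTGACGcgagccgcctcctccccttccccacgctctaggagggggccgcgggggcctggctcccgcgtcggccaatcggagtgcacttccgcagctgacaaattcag
Jun: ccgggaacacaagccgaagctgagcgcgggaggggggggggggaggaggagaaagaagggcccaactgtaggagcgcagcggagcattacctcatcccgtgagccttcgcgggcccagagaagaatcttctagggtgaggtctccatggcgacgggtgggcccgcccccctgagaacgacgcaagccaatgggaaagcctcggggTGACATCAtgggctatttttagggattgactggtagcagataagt
These stretches are chr12:85473640-85473889 (plus strand), chr7:19310046-19310295 (minus), chr8:84978749-84978998 (minus) and chr4:95052223-95052472 (minus). Fos held TGACG at -129 to -125 and at -66 to -62 and a TATAAA at -33 to -28, counted from the start. Fosb held TGACG at -60 to -56, Junb at -106 to -102, and Jun held TGACATCA at -45 to -38. Junb also held TATAAA at 1 to 6, past the printed stretch. RefSeq promoters of 300 bases (250 before to 50 after the start) were matched for 9 of the 10 genes, with 11 promoters in all, and Fosl1 had no entry. On either strand, TGACG occurred in 6 of the 11 promoters, from 5 of the 9 genes (Atf3, Fos, Fosb, Junb, Maff), and in 20.8% of 32851 mouse promoters of this length. The canonical AP-1 site TGACTCA occurred in none of the 11 and in 5.2% of all. The CArG box of serum response factor, searched as CC, then 6 bases of A or T, then GG, occurred in none and in 1.63%. Sequence beyond the 250 bases before the start was not searched, so these absences say nothing of elements further upstream. The full CRE TGACGTCA, which contains TGACG, occurred in 1 Maff promoter and in 1.79% of all, and TGACATCA in Jun and Maff promoters and in 3.62% of all.

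Per length of annotated exons, Junb was the most abundant of the 10 transcripts in each group. Its level was 434 ± 25 CPM per kb in isotype Tim-4high cells (mean ± SD, n = 3) and 255 ± 29.2 CPM per kb in anti-Tim-4 Tim-4high cells. Among FOS genes, Fos held between 87.3% and 90.8% of the family's per-length total as group means. Fosb held 4.77% ± 1.91 in isotype Tim-4high cells and between 1.96% and 3.37% in the other groups. Among JUN genes, Junb held between 52.9% and 59.7%, and Jun held 23.9% ± 3.18 in no-tumor Tim-4high cells but 14.1% ± 0.79 in isotype Tim-4low cells. Fosl1 stood at the bottom, with at most 0.977 CPM in a library, and Maff at most 6.97 CPM.

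**Figure D1:**
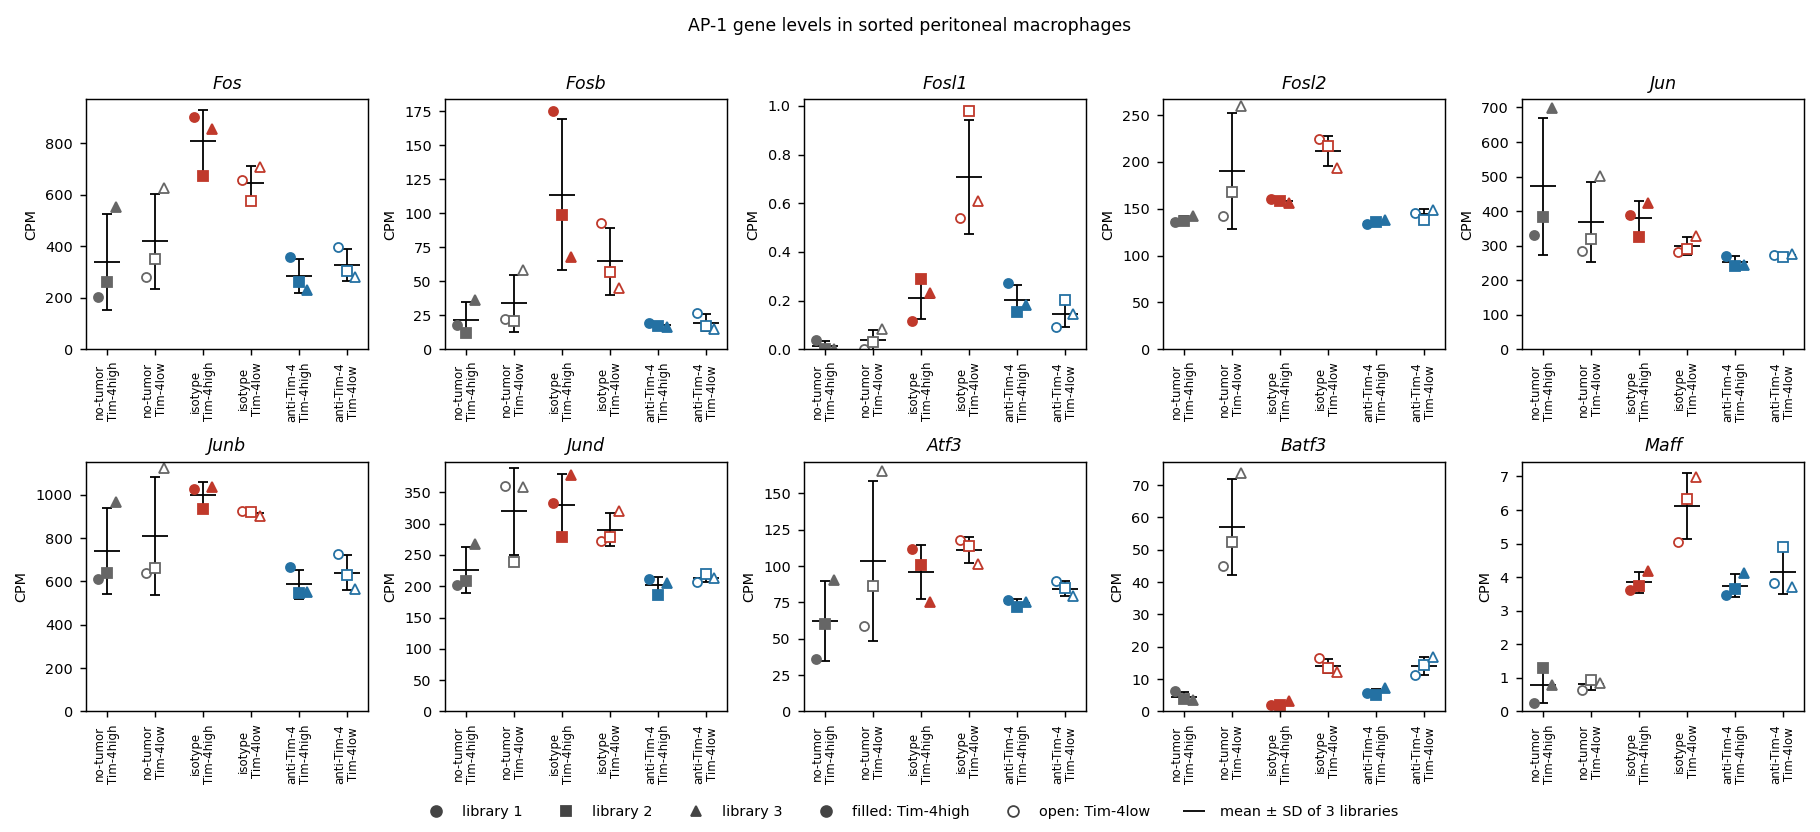
CPM of the 10 AP-1 genes by group, with 1 point per library (circle, square and triangle for libraries 1, 2 and 3) and mean ± SD of 3 libraries. Fos and Fosb are highest in the isotype groups (Fos means of 809 and 647 CPM), Batf3 in no-tumor Tim-4low cells (57.1 CPM), and Maff is near 1 CPM or below without a tumor on average.

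Taking all 6 groups together, 9 of the 10 genes differed among groups by edgeR's quasi-likelihood test at an adjusted p under 0.05, where 71.5% of the tested genes did. Atf3 did not (adjusted p = 0.175), and without both no-tumor libraries 3 it did (adjusted p = 0.00331). The plot of levels by library shows that neighbouring group means mostly overlapped. All 5 steps in the order of the 6 Fos means joined groups whose ranges overlapped, and the same held for Fosb. Batf3 was the gene with most separate steps: no-tumor Tim-4low lay above all other groups, and isotype Tim-4high below all.

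The first comparison asks how macrophages of tumor-bearing mice given isotype antibody differed from those of mice without a tumor. In Tim-4high cells Fos, Fosb, Fosl1, Jund and Maff were higher with the tumor and Batf3 was lower, so 6 of 10 genes passed the test where 51.5% of all tested genes did (27.3% higher and 24.1% lower, 4539 and 4009 genes, against 3467 and 5452 with library totals alone). The members' median log2 fold change was 0.59, against -0.01 over all genes. Fos, the prototype of the family, measured 204, 261 and 552 CPM in the no-tumor Tim-4high libraries 1 to 3 and 901, 671 and 854 CPM with isotype. All 3 isotype libraries lay above the highest no-tumor one, which was library 3. The change was 2.39-fold (log2 fold change 1.25 ± 0.33 SE, adjusted p = 0.00519), and 1.80 on the log2 scale without both no-tumor libraries 3 (adjusted p = 2.42e-05).

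Fosb, the closest relative of Fos, measured 17.7, 11.7 and 36.4 CPM without and 175, 98.6 and 67.6 CPM with the tumor in Tim-4high cells. The groups did not overlap, and the isotype libraries differed among themselves by more than 2-fold. The change was 5.19-fold (2.38 ± 0.48, adjusted p = 0.000689). Maff measured 0.262, 1.3 and 0.792 CPM without and 3.61, 3.73 and 4.2 CPM with the tumor, with no overlap (4.9-fold, 2.29 ± 0.34, adjusted p = 4.73e-05). Jund, the JUN member that is usually expressed without a stimulus, rose 1.46-fold, from 203, 208 and 268 CPM to 333, 280 and 378 CPM (0.55 ± 0.15, adjusted p = 0.0067). Its lowest isotype library lay just above the highest no-tumor one. Fosl1 rested on 17 estimated counts over 3 libraries against 1, a ratio of 16.8 per library size with an exact 95% counting interval of 2.63 to 701 (adjusted p = 0.00316). It passed the filter on low counts only through isotype Tim-4low cells (17, 31 and 19 counts, against at most 8 in any other library).

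Batf3 measured 6.42, 3.71 and 3.47 CPM in no-tumor and 2.07, 2.03 and 3.12 CPM in isotype Tim-4high libraries. All isotype values lay below all no-tumor ones, and the change was 1.89-fold downward (-0.92 ± 0.28, adjusted p = 0.0122). It lost the call without no-tumor Tim-4high library 1 or isotype Tim-4high library 2 (adjusted p up to 0.0927). Junb (0.43 ± 0.20, adjusted p = 0.0787), Atf3 (0.63 ± 0.32, adjusted p = 0.107), Fosl2 (0.20 ± 0.15, adjusted p = 0.283) and Jun (-0.31 ± 0.23, adjusted p = 0.274) did not pass. Without both no-tumor libraries 3, Junb (0.68, adjusted p = 0.000275), Atf3 (1.01, adjusted p = 0.00169) and Fosl2 (0.22, adjusted p = 0.0424) passed too, 9 of 10 where 44.9% of all genes did, and Jun turned to 0.09 (adjusted p = 0.562). Since those libraries were left out for their high AP-1 values, the added calls of this fit are no support. The other called members stayed called in that fit, with Fosb at 2.95 (adjusted p = 8.91e-05), Fosl1 at 3.21 (adjusted p = 0.0127), Jund at 0.69 (adjusted p = 0.00257), Maff at 2.30 (adjusted p = 0.000578) and Batf3 at -1.08 (adjusted p = 0.00514). Fos, Fosb and Jund were highest of their group in no-tumor Tim-4high library 3, so their kept calls are no support either. Markers of other cell types moved in the same comparison. Of the tested markers, 8 of 9 for neutrophils, 11 of 12 for T and NK cells, 6 of 9 for monocytes and 9 of 9 for mesothelial cells and fibroblasts were called higher, and 9 of 10 for B cells lower. In Tim-4low cells these counts were 5, 11, 6, 9 and 10, and 1 monocyte marker was called lower in each population. Among all tested genes 27.3% were called higher and 24.1% lower in Tim-4high cells, and 25.2% and 24.6% in Tim-4low cells. The part of these markers in the AP-1 results was not tested.

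In Tim-4low cells, 3 of 10 genes passed where 49.8% of all did: Maff and Fosl1 were higher with the tumor and Batf3 was lower. Batf3 measured 45, 52.5 and 73.7 CPM without and 16.4, 13.4 and 12.3 CPM with the tumor. The groups were far apart, and the level was 4.06-fold lower with the tumor (-2.02 ± 0.24, adjusted p = 6.66e-06). Maff measured 0.628, 0.939 and 0.855 CPM without and 5.04, 6.33 and 6.97 CPM with the tumor (7.51-fold, 2.91 ± 0.33, adjusted p = 4.73e-06). Fosl1, known from invasive tumor cells and activated fibroblasts, had 67 counts against 4, a ratio of 17.2 with an exact 95% counting interval of 6.4 to 64.8 (adjusted p = 9.63e-05). Since Fosl1 passed the filter only through the isotype group of this comparison, it had to differ, and the call adds no support. Of 10 mesothelial and fibroblast markers, 9 were tested and 9 were called higher beside it, where 25.2% of all tested genes were. Their sums were 0.276 to 0.814 CPM without and 22.3 to 76.2 CPM with the tumor. Their part in the Fosl1 result was not tested. Without both no-tumor libraries 3 the log2 values were -1.79 for Batf3 (adjusted p = 3.94e-05), 2.95 for Maff (adjusted p = 8.5e-05) and 5.10 for Fosl1 (adjusted p = 0.000252).

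Fos in Tim-4low cells measured 280, 349 and 627 CPM without and 655, 577 and 708 CPM with the tumor. The no-tumor library 3 lay inside the isotype range, and the change of 0.63 ± 0.33 did not pass (adjusted p = 0.127). Fosb gave 0.93 ± 0.46 (adjusted p = 0.104). Without no-tumor Tim-4low library 3 alone, 7 genes passed (44.5% of all genes), and without both libraries 3, 8 passed (44.8%): Fos (1.04, adjusted p = 0.0013), Fosb (1.57, adjusted p = 0.00521), Fosl2 (0.45, adjusted p = 0.000614), Junb (0.49, adjusted p = 0.00289) and Atf3 (0.61, adjusted p = 0.0276) beside the 3 above. Here too the omission was chosen by high AP-1 values, so the added calls are no support. In those libraries 3 the summed level of 17 other immediate-early genes was 4520 and 4500 CPM, against 2610 to 2980 CPM in the other no-tumor libraries. Hspa1a, a heat shock gene, was at 1111 and 1192 CPM there, at 940 and 1003 CPM in libraries 2, and at 367 and 363 CPM in libraries 1. With isotype it was at 49.4 to 73.5 CPM over both populations, and in Tim-4low cells it fell from 853 ± 434 to 60.7 ± 10.4 CPM (-3.81 ± 0.45, adjusted p = 5.91e-06). With anti-Tim-4 it stood at 108 to 174 CPM in Tim-4high and 132 to 223 CPM in Tim-4low libraries, and neither change from isotype passed (1.17, adjusted p = 0.0845, and 1.48, adjusted p = 0.141). The heat shock list did not move as Hspa1a did. Of its 11 genes, 5 were called higher and 3 lower with the tumor in Tim-4low cells, and 6 and 3 in Tim-4high cells. Among all tested genes 25.2% were called higher and 24.6% lower in Tim-4low cells, and 27.3% and 24.1% in Tim-4high cells. In Tim-4low cells the list summed to 3740 to 5600 CPM without a tumor and 3670 to 4240 CPM with isotype, with overlap. The part of these levels in the AP-1 results, and whether collection differed between libraries, was not tested.

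**Figure D2:**
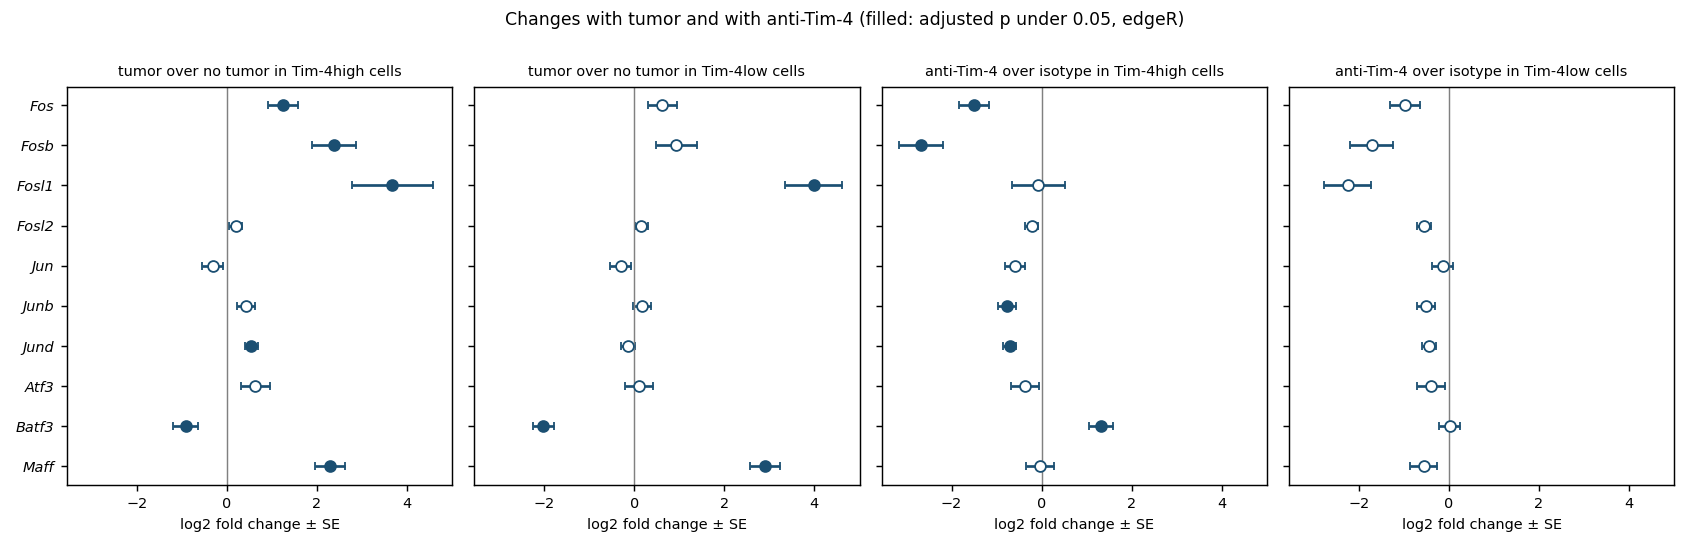
Log2 fold change ± SE of each AP-1 gene with the tumor (isotype over no-tumor) and with anti-Tim-4 (relative to isotype), by population, with filled points where the adjusted p was under 0.05. Fosb moves from 2.38 with the tumor to -2.68 with anti-Tim-4 in Tim-4high cells, and these comparisons share the isotype libraries.

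The second comparison asks what anti-Tim-4 changed in tumor-bearing mice. In Tim-4high cells Fos, Fosb, Junb and Jund were lower than with isotype and Batf3 was higher. These 5 of 10 genes passed where 7.97% of all tested genes did, with 4 members lower against 3.67% of all genes, and 1 higher against 4.3% (609 and 715 genes, against 478 lower and 1587 higher with library totals alone). Fos measured 357, 261 and 232 CPM with anti-Tim-4, against the 671 to 901 CPM with isotype. The groups did not overlap, and Fos was 2.86-fold lower (-1.51 ± 0.34, adjusted p = 0.0179). Fosb measured 19.6, 17.3 and 16.4 CPM, with no overlap with isotype (6.41-fold lower, -2.68 ± 0.49, adjusted p = 0.00947). The anti-Tim-4 libraries lay close together, whereas the isotype libraries ran from 67.6 to 175 CPM.

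Junb, which can oppose Jun at some promoters and is abundant in macrophages, measured 665, 546 and 550 CPM against 1027, 932 and 1037 CPM with isotype (-0.77 ± 0.20, adjusted p = 0.0318). Jund measured 212, 187 and 205 CPM against 333, 280 and 378 CPM (-0.71 ± 0.15, adjusted p = 0.0156). Neither gene's groups overlapped. Batf3 went the other way, at 5.79, 5.08 and 7.13 CPM against 2.07, 2.03 and 3.12 CPM (2.5-fold higher, 1.32 ± 0.28, adjusted p = 0.0152). Jun (-0.59 ± 0.23, adjusted p = 0.122) and Fosl2 (-0.22 ± 0.15, adjusted p = 0.367) were lower in all 3 libraries than in any isotype one but did not pass, and Atf3, Maff and Fosl1 overlapped. In all, 6 members lay lower without overlap, an order found for 19.3% of all genes. In a fit of the 6 compared libraries alone Jun (adjusted p = 0.00884) and Fosl2 (adjusted p = 0.0175) joined the 5, making 7 of 9 tested where 20.3% of all genes passed.

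The calls with anti-Tim-4 in Tim-4high cells were sensitive to single libraries. None of the 5 passed without isotype Tim-4high library 1 or without anti-Tim-4 Tim-4high library 3, where 0.0583% and 0.181% of all tested genes passed. Without isotype Tim-4high library 3 or anti-Tim-4 Tim-4high library 2, 2 passed (Fosb and Batf3), where 1.19% and 2.38% of all genes did. Log2 fold changes stayed between -1.71 and -1.38 for Fos and between -2.95 and -2.23 for Fosb over these omissions, with adjusted p up to 0.116 and 0.0641. DESeq2 called the same 5 genes, and 14.2% of all it tested. In the authors' deposited table of this comparison, Fos was 2.86-fold lower with an FDR of 3.05e-09, Fosb 6.41-fold lower and Batf3 2.5-fold higher. That table, the authors' deposited one, also gave Jun (1.51-fold lower, FDR 1.73e-07), Fosl2 (1.16-fold lower, FDR 0.00286) and Atf3 (1.29-fold lower, FDR 0.0271).

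In Tim-4low cells anti-Tim-4 gave 0 calls among the 10 genes by edgeR, where 0.325% of all tested genes were called. At an unadjusted p under 0.05 there were 6 (Fos, Fosb, Fosl1, Fosl2, Junb and Jund), where 12.3% of all genes passed, and DESeq2 called 2 (2.07% of all genes it tested), Fosb (adjusted p = 0.038) and Fosl2 (adjusted p = 0.024). All 3 anti-Tim-4 libraries lay below all 3 isotype ones for 9 of the 10 genes, an order found for 9.96% of all tested genes, and the remaining gene was Batf3. Fosl1 is among the 6 and among the 9. It passed the filter on low counts only through the isotype group of this comparison, so it had to differ and adds no support. Fos measured 398, 304 and 279 CPM against 655, 577 and 708 CPM (-0.98 ± 0.33, adjusted p = 0.241). Fosb measured 26.6, 16.8 and 15.2 CPM against 92.5, 56.5 and 44.7 CPM (-1.72 ± 0.47, adjusted p = 0.134). Batf3 stood at 11.2, 14.5 and 16.8 CPM against 16.4, 13.4 and 12.3 CPM, and these groups overlapped fully.

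The third comparison sets Tim-4low against Tim-4high cells within a condition. Libraries of the same number deviated together within a condition, so the values with a block on library number stand beside those of the 6 group means. The labels do not state this pairing, and results with the block depend on it. Batf3 was higher in Tim-4low cells in each condition, in 9 of 9 numbered pairs. Its levels in the 6 groups, given above, did not overlap between populations in any condition. It was 12.6-fold higher without a tumor (3.65 ± 0.26, adjusted p = 3.5e-07), 5.83-fold with isotype (2.54 ± 0.27, adjusted p = 4.59e-05) and 2.36-fold with anti-Tim-4 (1.24 ± 0.25, adjusted p = 0.0238). The last call was lost without any of 4 libraries (anti-Tim-4 Tim-4high 1 or 2, Tim-4low 2 or 3; adjusted p up to 0.139). In the authors' deposited table without a tumor, Batf3 was 12.5-fold higher in Tim-4low cells.

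Since Batf3 is also a dendritic cell gene, the 13 dendritic cell markers were read beside it. Without a tumor they summed to 462 to 609 CPM in the Tim-4low group against 323 to 486 CPM in the Tim-4high group, with overlap. Of the 13, 5 were called higher and 1 lower (12.8% and 11.8% of all tested genes). Xcr1, a defining marker of cross-presenting dendritic cells, was at 0.138 to 0.453 CPM in no-tumor Tim-4low libraries and at 0.118 to 0.71 CPM in Tim-4high ones. Clec9a, another one, was at 2.09 to 5.24 CPM against 0.189 to 1.57 CPM, and Irf4 at 141 to 161 CPM against 46.8 to 73.9 CPM. Siglech was at 0 in at least 1 no-tumor Tim-4high library, and none of the 13 was at 0 in all 3 libraries of a group. With isotype the sum was 635 to 834 CPM in the Tim-4low group against 940 to 1120 CPM in the Tim-4high group. Of the 13, 1 was called higher and 1 lower (11.3% and 12.9% of all tested genes). The lower one was Cd24a, at 297 ± 89.3 against 789 ± 64.3 CPM (adjusted p = 0.0442), and the higher one Irf8, at 338 ± 24.2 against 161 ± 28.2 CPM (adjusted p = 0.00435). Without Cd24a, left out after its values were seen, the other 12 summed to 378 to 437 CPM in the Tim-4low and 172 to 278 CPM in the Tim-4high group with isotype. Without a tumor the same 12 summed to 382 to 506 CPM in the Tim-4low and 222 to 269 CPM in the Tim-4high group, with no overlap. With anti-Tim-4 they overlapped, at 262 to 373 CPM in the Tim-4low and 291 to 362 CPM in the Tim-4high group. Of 9 monocyte markers, 5 were called higher in Tim-4low cells in no-tumor mice, 5 under isotype and 1 after anti-Tim-4 (12.8%, 11.3% and 0.542% of all tested genes). Ccr2, the chemokine receptor of classical monocytes, stood at 1470 ± 286 against 46.6 ± 23.5 CPM in no-tumor mice, 896 ± 76.6 against 74.7 ± 42.5 CPM under isotype and 669 ± 149 against 142 ± 22.2 CPM after anti-Tim-4. The monocyte markers summed to 2470 to 3250 against 481 to 1120 CPM without a tumor and to 4400 to 5650 against 7890 to 8190 CPM with isotype. Of 10 macrophage markers, 7 were called lower in Tim-4low cells without a tumor, 4 lower and 1 higher with isotype, and 0 with anti-Tim-4. Among all tested genes 11.8%, 12.9% and 0.849% were called lower in these conditions, and 11.3% higher with isotype. The part of dendritic cells and monocytes in the Batf3 result was not tested.

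Without a tumor 3 of 10 genes were higher in Tim-4low cells (Batf3, Fosl2 and Jund), where 24.6% of all tested genes differed. Fosl2, a FOS member with slower kinetics than Fos, measured 142, 168 and 260 CPM in Tim-4low cells against 135, 137 and 142 CPM in the other population (0.46 ± 0.15, adjusted p = 0.0329). The ranges overlapped slightly, and without both libraries 3 the value was 0.19 (adjusted p = 0.201). Jund measured 360, 239 and 359 CPM against 203, 208 and 268 CPM, with overlap (0.50 ± 0.15, adjusted p = 0.0236). Without both libraries 3, Jund gave 0.55 (adjusted p = 0.0429) and Batf3 3.26 (adjusted p = 1.28e-05). In the authors' deposited table Fosl2 was 1.37-fold (FDR 0.148) and Jund 1.41-fold higher (FDR 0.0618). The Fosl2 and Jund calls were each lost in 4 of 6 omissions of a library. Fosl2 lost it without any Tim-4high library or Tim-4low library 3, and Jund without Tim-4high library 1 or 2 or Tim-4low library 1 or 3. With the block on library number 7 genes passed, where 34.3% of all genes did. Fos (0.35, adjusted p = 0.00188), Fosb (0.62, adjusted p = 0.00124) and Atf3 (0.71, adjusted p = 2.99e-05) joined as higher and Jun (-0.32, adjusted p = 0.0042) as lower in Tim-4low cells. With the block and without both libraries 3, 6 passed where 23.7% of all genes did, and Fosl2 was the one lost (0.18, adjusted p = 0.11).

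With isotype 2 of 10 genes passed (Batf3 and Fosl1, both higher in Tim-4low), where 24.1% of all genes did. Fosl1 had 67 counts against 17, a ratio of 3.32 with an exact 95% counting interval of 1.93 to 6.03 (adjusted p = 0.0239), and lost the call without isotype Tim-4high library 1 or 3 or Tim-4low library 2. The group in which it was high is again the only one through which it passed the filter, so this call adds no support. With the block 8 passed, against 34.1% of all genes. Fosl2 (0.41, adjusted p = 0.0134), Maff (0.66, adjusted p = 0.0199) and Atf3 (0.22, adjusted p = 0.0432) were then higher in Tim-4low cells, and Fos (-0.32, adjusted p = 0.00379), Fosb (-0.78, adjusted p = 0.000136) and Jun (-0.34, adjusted p = 0.00349) lower. With anti-Tim-4, 1 gene passed (Batf3), where 1.39% of all genes did, and the block gave the same count, with 7.12% of all genes.

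**Figure D3:**
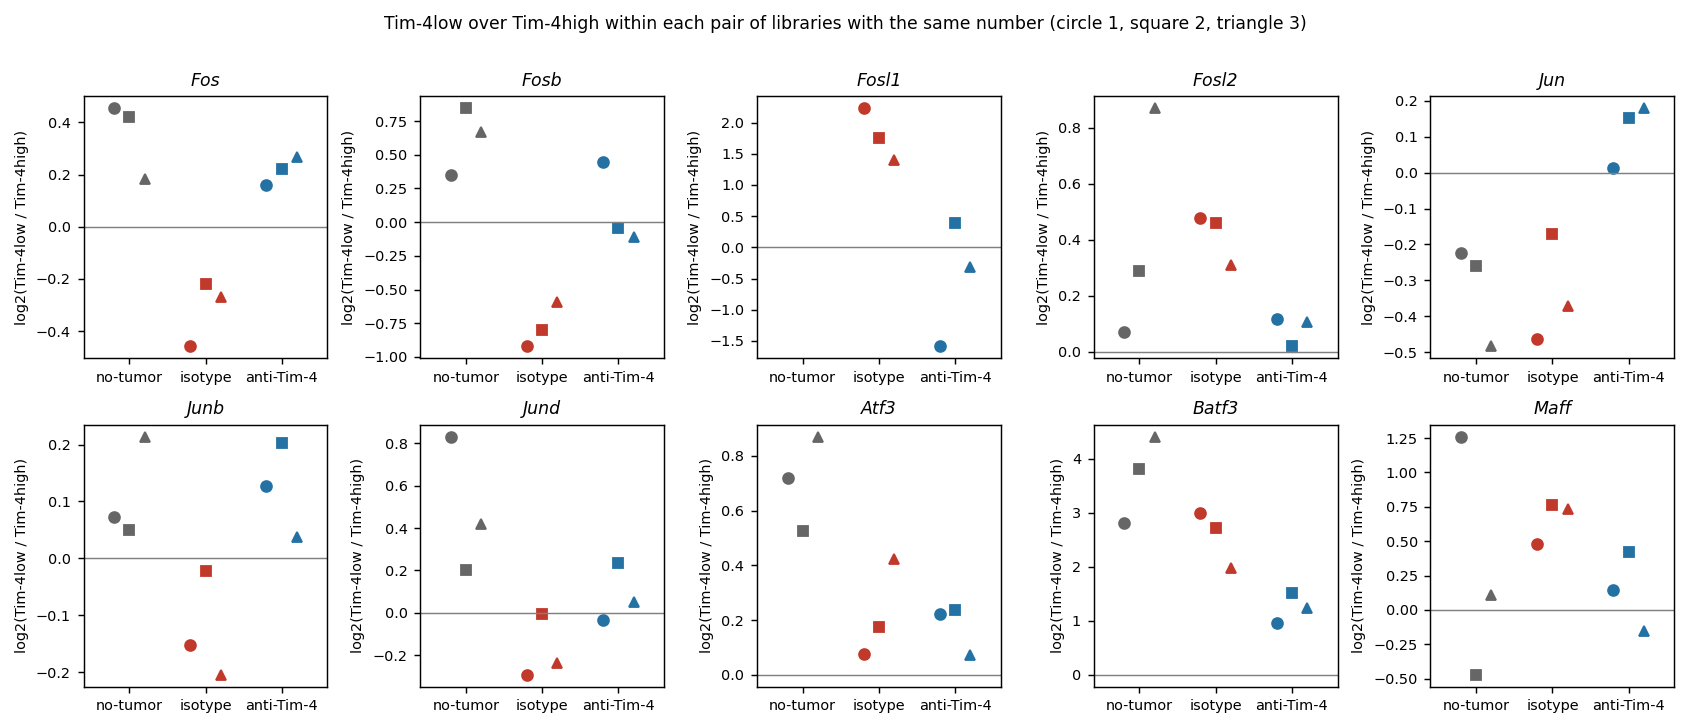
Log2 ratio of Tim-4low to Tim-4high CPM in each pair of libraries with the same number, by condition, 1 panel per gene with its own vertical scale (Fosl1 without a tumor is left out because of counts of 0). Fos lies above 0 in all 3 no-tumor pairs, below 0 in all 3 isotype pairs and above 0 in all 3 anti-Tim-4 pairs, and Batf3 above 0 in all 9.

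Pair by pair, Fos gave log2 ratios of 0.45, 0.42 and 0.18 without a tumor, -0.46, -0.22 and -0.27 with isotype, and 0.16, 0.22 and 0.27 with anti-Tim-4. The sign thus differed between isotype and both other conditions in every pair. By edgeR with the block, Fos passed in the first 2 conditions but not with anti-Tim-4 (adjusted p = 0.0885), and without the block it passed in none. Junb followed the same signs at a smaller size, from -0.20 to 0.21 over the 9 pairs. It passed with the block in no condition (adjusted p = 0.199, 0.145 and 0.283 by edgeR). Jun was lower in Tim-4low cells in all 6 pairs of the first 2 conditions (-0.48 to -0.17) and higher in all 3 anti-Tim-4 pairs (0.01 to 0.18). With anti-Tim-4 Jun did not pass with the block (adjusted p = 0.392 by edgeR). Atf3 and Fosl2 were higher in Tim-4low cells in 9 of 9 pairs. The share of all genes with such signs is not given here.

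Whether the effect of tumor or antibody differed between populations was tested as an interaction. On the 6 group means 0 of the 10 genes passed by edgeR for the tumor, where 3.53% of all genes did, and 0 for the antibody, where 2.93% did. At an unadjusted p under 0.05 there were 3 (Batf3, Fosb and Jund) and 2 (Batf3 and Fosl1), where 16.3% and 19.3% of all genes passed. Fosl1 passed the filter on low counts only through isotype Tim-4low cells, so its place here adds no support. DESeq2 called Batf3 and Jund for the tumor (adjusted p = 0.04 and 0.031; 7.24% of all genes it tested) and Batf3 for the antibody (adjusted p = 0.011; 9.23%). With the block on library number 4 genes passed in each, where 11.2% and 15.7% of all genes did. For the tumor these were Fos, Fosb, Jund and Atf3, all with a lower log2 change in Tim-4low than in Tim-4high cells (-0.67, -1.40, -0.66 and -0.48). Without both no-tumor libraries 3, 3 of these passed with the block (6.57% of all genes), and Atf3 did not (-0.40, adjusted p = 0.0676). For the antibody they were Fos (0.53), Fosb (0.88) and Jun (0.45), less reduced in Tim-4low cells, and Batf3 (-1.31). Both interactions share the isotype libraries.

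The deposited transcript table splits each gene's estimated counts over annotated transcripts. Fos-201, which encodes the full protein of 380 residues, held 97.3% ± 0.19 of the Fos counts in isotype Tim-4high cells and 92.6% ± 1.34 in no-tumor Tim-4high cells. Fos-203, a processed transcript with no annotated protein, held 2.43% ± 0.07, 7.43% ± 1.34 and 5.28% ± 1.06 in the isotype, no-tumor and anti-Tim-4 Tim-4high groups. Its isotype range (2.36% to 2.51%) lay below the no-tumor range (5.98% to 8.6%) and below the anti-Tim-4 range (4.25% to 6.36%). Of Fosb counts, the transcript for the longest protein (Fosb-201, 338 residues) held 47.7% ± 4.78 in isotype and 22.3% ± 5.46 in no-tumor Tim-4high cells. Fosb-202 and Fosb-203, with proteins of 302 and 263 residues, held 1.83% ± 0.69 and 1.17% ± 0.49 with isotype and 13.5% ± 2.26 and 12.8% ± 3.08 without a tumor. A single-exon transcript annotated as a retained intron (Fosb-204) held 27.9% to 35.1% as group means, and Fosb-206, for a protein of 237 residues, at most 0.63% ± 0.72 in Tim-4high groups. These transcripts overlap along most of their length, so the shares rest on how the quantifier divided shared reads, and no test was run on them. Batf3-201 held 85.4% ± 5.15 of Batf3 counts in no-tumor Tim-4high and 65.5% ± 2.28 in no-tumor Tim-4low cells. Batf3 and Atf3 are neighbours on chromosome 1 (191097847 to 191108945, plus strand, and 191170296 to 191218039, minus strand, mm10). On the 6 group means Batf3 was called in 6 of the 7 comparisons between 2 groups and Atf3 in 0. At an unadjusted p under 0.05 Atf3 passed in 1, Tim-4low over Tim-4high without a tumor (35.1% of all genes), and DESeq2 called it in 0. Atf3 was called with the block in that comparison and with isotype, and in both tumor comparisons without both libraries 3, as given above.

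Among genes outside the family, the 3 whose log2(CPM + 1) ran most like each member over the 18 libraries were taken. These correlations are over libraries that share conditions and depth, and they carry no p. Junb was most like Nr4a1 (Pearson r = 0.957, Spearman rho = 0.884), Zfp36 (r = 0.945, rho = 0.917) and Egr1 (r = 0.941, rho = 0.932). Fos was most like Klf4 (r = 0.906, rho = 0.897), Trib1 and Ccrl2, and Jun most like Tob1 (r = 0.867, rho = 0.87), Ppp1r15a and Cd14. Batf3 was most like Plxnd1 (r = 0.986, rho = 0.979), Rtl5 and Flvcr1, and Maff most like Psma2 (r = 0.984, rho = 0.88), Psma5 and Magohb. For the others the closest genes were Atg4d for Fosb (r = 0.878), Ybx3 for Fosl1 (r = 0.927), Slc20a1 for Fosl2 (r = 0.903), Suco for Jund (r = 0.789) and Nmd3 for Atf3 (r = 0.886). Within the family, Fos ran with Junb (r = 0.943) and Fosb (r = 0.918) but at r = -0.169 with Batf3.

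**Figure D4:**
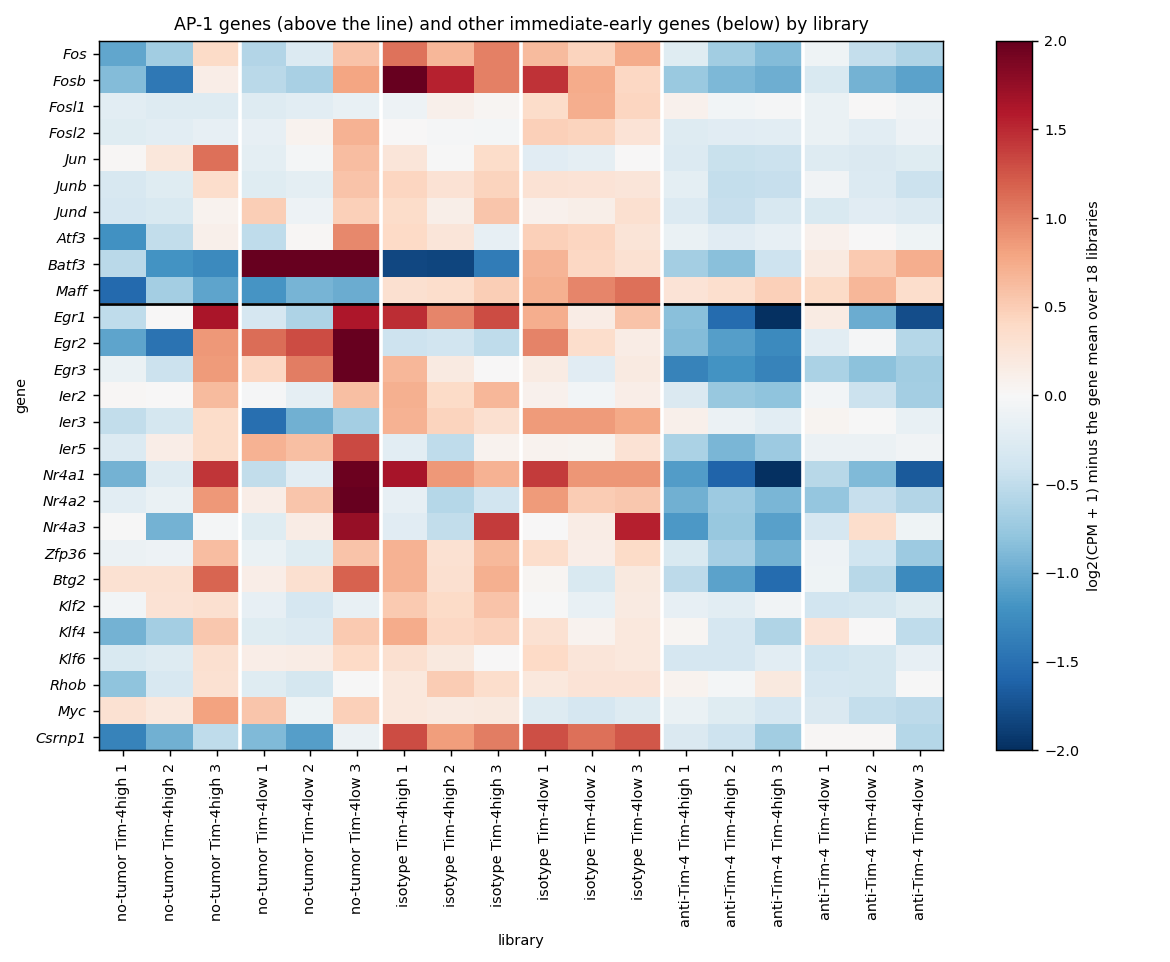
Log2(CPM + 1) minus the gene's mean over 18 libraries for the 10 AP-1 genes (above the line) and 17 other immediate-early genes (below), 1 column per library, red above and blue below the mean, with the color scale ending at 2 and -2. The no-tumor libraries 3 and the isotype libraries are red for Fos, Fosb and Junb and for Egr1, Nr4a1 and Zfp36, and the anti-Tim-4 Tim-4high libraries are blue.

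Of 17 other immediate-early genes, 4 rose and 0 fell with the tumor in Tim-4high cells, where 27.3% and 24.1% of all tested genes did. With anti-Tim-4 there, 0 rose and 8 fell, where 4.3% and 3.67% of all tested genes did. The median log2 fold change with anti-Tim-4 was -0.83, against -0.00 over all genes. Csrnp1 went from 72.4 ± 12.3 CPM with isotype to 24.5 ± 3.49 CPM with anti-Tim-4 (-1.56 ± 0.26, adjusted p = 0.0068), Klf2 from 945 ± 66.3 to 603 ± 30.3 CPM (-0.65 ± 0.10, adjusted p = 0.0068), and Ier2 from 237 ± 27.2 to 104 ± 21.8 CPM (-1.20 ± 0.22, adjusted p = 0.01). In Tim-4low cells 2 rose (Ier3 and Csrnp1) and 4 fell with the tumor, where 25.2% and 24.6% of all tested genes did. With the block on library number 4 rose and 4 fell. With anti-Tim-4, 1 of the 17 (Csrnp1) fell there, where 0.102% of all tested genes did. The plot of centred levels shows the 17 genes library by library.

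Of 11 MAP kinase phosphatases, which switch off the kinases upstream of AP-1, 1 rose and 3 fell with anti-Tim-4 in Tim-4high cells. Among all tested genes 4.3% rose and 3.67% fell in this comparison. Dusp1, an immediate-early gene itself, went from 1190 ± 179 to 355 ± 119 CPM (-1.74 ± 0.31, adjusted p = 0.00947). Of 22 MAP kinases and upstream kinases, 0 rose and 1 fell (Mapk12, under 1 CPM). Of 6 serum response and ternary complex factors, which drive Fos transcription, 1 rose, Elk3 (0.71 ± 0.17, adjusted p = 0.0222). Among 24 other AP-1-related basic leucine zipper genes 4 rose and 0 fell, with Maf at 273 ± 42.9 against 117 ± 23.3 CPM (1.22 ± 0.22, adjusted p = 0.00947). With the tumor in Tim-4high cells 6 of those 24 rose and 14 fell, where 27.3% and 24.1% of all tested genes did.

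Of 20 textbook targets of AP-1, 18 were tested. With the tumor 16 rose and 0 fell in Tim-4high cells and 15 rose and 1 fell in Tim-4low cells, including Vegfa (62.7 ± 9.3 against 1.96 ± 0.903 CPM in Tim-4high, 5.0 ± 0.23, adjusted p = 8.41e-10) and Spp1. In the same comparisons 15 of 16 genes of hypoxia and glycolysis rose and 0 fell in each population, and Vegfa is also a known hypoxia target. Among all tested genes 27.3% rose and 24.1% fell in Tim-4high cells, and 25.2% and 24.6% in Tim-4low cells. With anti-Tim-4 in Tim-4high cells 0 of the 18 targets rose and 5 fell, where 4.3% and 3.67% of all tested genes did. Ptgs2, the inducible cyclooxygenase, went from 15.8 ± 3.63 to 3.39 ± 1.05 CPM (-2.22 ± 0.38, adjusted p = 0.00888), the chemokine Cxcl2 from 362 ± 125 to 65.3 ± 23.5 CPM (-2.47 ± 0.46, adjusted p = 0.0097) and Il6 from 17.6 ± 7.42 to 4.77 ± 2.24 CPM (-1.88 ± 0.47, adjusted p = 0.0271). Beside these results, summed mesothelial and fibroblast markers were at 9.59 to 45.6 CPM in isotype and 4.31 to 6.49 CPM in anti-Tim-4 Tim-4high libraries, and neutrophil markers at 48.7 to 242 and 25.8 to 33.6 CPM. Monocyte markers were at 7890 to 8190 and 4230 to 12200 CPM, lowest in anti-Tim-4 library 3. Their part in the AP-1 results was not tested.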

How the data were processed

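For 18 libraries the authors deposited a gene table and a transcript table of estimated counts. STAR, DESeq2 and mm10 appear in the submitters' processing notes, while no source used here names the quantifier, its annotation release or its use of strand. Of the estimated gene counts, 62.8% to 66.8% per library lay within 0.001 of a whole number. The authors' deposited tables give p-values with step-up FDR and signed linear fold changes for 2 comparisons. The fold of the no-tumor table is Tim-4high over Tim-4low, and its direction was turned here.

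For the tests, estimated counts were rounded. filterByExpr (minimum count 10) kept 16609 of 23511 genes, among them all 10 members, and edgeR 4.0.16 (R 4.3.3) fitted 6 group means with TMM factors, with 12 residual degrees of freedom (common dispersion 0.0323). A call is a Benjamini-Hochberg adjusted p under 0.05 over all 16609 genes. CPM used TMM library sizes, and per-length levels used the union of annotated exons (GENCODE M21). All 10 members are named; beside them stand the 3 genes most like each member (mean of at least 10 CPM) and up to 3 genes with the smallest p of each list. The members and lists were chosen with earlier results of these data known, and the promoter motifs, the transcripts, the cell type markers and Hspa1a were singled out after their values were seen. The fit was tested on simulated data.

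Alternatives were RLE, upper-quartile and no scaling factors, robust estimation, an unfiltered table, DESeq2 1.42.0, a block on library number, fits of the compared groups alone and leaving out each library. The fits without both no-tumor libraries 3, with and without the block, were added after seeing that most AP-1 genes were high in those libraries. The labels number libraries without saying what a number marks. Deviations from group means correlated at 0.155 to 0.4885 (median 0.3524) in all 9 pairs of Tim-4low and Tim-4high libraries with the same number and condition. Other numbers of the same condition gave -0.4323 to 0.2088 (median -0.2084). Deviations within a group cancel out, so positive values for the same number push these values down. Libraries that differed in both number and condition gave -0.2496 to 0.4008 (median 0.01521). These ranges overlap, so the pairing of populations by number within a condition was inferred from the data and is not certain. Libraries that shared a number but not a condition gave -0.2936 to 0.1793 and were taken as unpaired. Replicates differed beyond counting noise (chi-square per degree of freedom 10.49 to 83.44). Intervals on counts cover counting error only.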

Additional observations from a re-analysis of the deposited data

Results flagged for a closer look

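With the block on library number, the effect of the tumor or of the antibody differed between Tim-4low and Tim-4high cells for 8 results by a test of the difference itself (edgeR's quasi-likelihood test, adjusted over all tested genes). For the tumor, the log2 change was lower in Tim-4low cells for Fos (-0.67, adjusted p = 0.00131), Fosb (-1.40, adjusted p = 0.000239), Jund (-0.66, adjusted p = 0.0126) and Atf3 (-0.48, adjusted p = 0.0159). For the antibody, the difference was 0.53 for Fos (adjusted p = 0.00331), 0.88 for Fosb (adjusted p = 0.00272), 0.45 for Jun (adjusted p = 0.0108) and -1.31 for Batf3 (adjusted p = 0.0339). By edgeR on the 6 group means none of the 8 passed, with adjusted p from 0.0616 for Batf3 to 0.622 for Atf3, while DESeq2, also without a block, called Jund for the tumor (adjusted p = 0.031) and Batf3 for the antibody (adjusted p = 0.011). With the block 11.2% and 15.7% of all tested genes passed. Without both no-tumor libraries 3, Fos (adjusted p = 0.000916), Fosb (adjusted p = 0.00119) and Jund (adjusted p = 0.0274) passed for the tumor with the block and Atf3 did not (adjusted p = 0.0676).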

How the results depend on the processing

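The 20 calls of the 10 genes in comparisons between 2 groups kept their direction and their side of the threshold with RLE factors, upper-quartile factors, library totals alone, robust estimation, an unfiltered table, DESeq2 and the replicate block. In fits of the compared groups alone 2 of 19 were lost, without both no-tumor libraries 3 1 of 12, and over single omissions 33 of 120. Those 12 include tumor calls of genes high in the libraries left out, so that count does not measure stability. The block changed no call other than the 18 it added. In the tumor and antibody comparisons it was an effect of number shared by all conditions, not a pairing within a condition. With library totals alone the median log2 change of all genes was -0.15 (-0.01 with TMM) with the tumor in Tim-4high and -0.14 (-0.02) in Tim-4low cells, and 0.13 (0.02) and 0.15 (0.01) for Tim-4low over Tim-4high without a tumor and with isotype.

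Counts of members called moved as follows, with the share of all tested genes called in parentheses, and the cause was not tested. With the tumor in Tim-4low cells the count was 8 without both libraries 3 (44.8%) and 3 to 7 over single omissions (41.3% to 44.6%). For Tim-4low over Tim-4high without a tumor it was 1 in the compared groups alone (16.1%), 7 with the block (34.3%), 6 with the block and without both libraries 3 (23.7%), and 1 to 3 over omissions (16.4% to 22.8%). With isotype it was 4 by DESeq2 (25.7%), 4 in the compared groups alone (29.6%), 8 with the block (34.1%) and 1 to 2 over omissions (15.4% to 20.5%), and with anti-Tim-4 0 to 1 (0.146% to 0.813%). For anti-Tim-4 it was 0 to 5 over omissions in Tim-4high cells (0.0583% to 6.79%) and 2 by DESeq2 in Tim-4low cells (2.07%). The tumor interaction gave 2 by DESeq2 (7.24%), 4 with the block (11.2%), 3 with the block and without both libraries 3 (6.57%), and 0 to 1 over omissions (1.88% to 5.21%). The antibody interaction gave 1 with library totals alone (4.69%), 1 by DESeq2 (9.23%), 2 in the compared groups alone (6.21%), 4 with the block (15.7%) and 0 to 1 over omissions (0.00582% to 8.29%).

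Every log2 value that reversed was uncalled. With library totals alone these were Atf3 with the tumor in Tim-4low cells (-0.01), Junb for Tim-4low over Tim-4high with isotype (0.01), and Fosl1 (0.00) and Maff (0.04) with anti-Tim-4 in Tim-4high cells. Without both libraries 3 they were Jun with the tumor in Tim-4high cells (0.09), Fosl1 for Tim-4low over Tim-4high without a tumor (-0.18), and Fosl2 (0.23) and Jun (-0.10) in the tumor interaction, and with the block -0.17, 0.23 and -0.09 for the last 3. The block gave 0.00 for Fosl2 and -0.01 for Jun in that interaction, and upper-quartile factors 0.01 for Atf3 in the antibody interaction. Over single omissions, Jun ran from -0.52 to 0.09 with the tumor in Tim-4high cells, and Fosl2 from -0.00 to 0.46 and Atf3 from -0.17 to 0.62 in Tim-4low cells. For Tim-4low over Tim-4high without a tumor, Fos ran from -0.11 to 0.85, Fosb from -0.01 to 1.21, Jun from -0.64 to 0.04, Junb from -0.18 to 0.37 and Maff from -0.38 to 0.62, and with anti-Tim-4 Fosb from -0.15 to 0.30. With anti-Tim-4, Fosl1 ran from -0.36 to 0.22 and Maff from -0.10 to 0.03 in Tim-4high cells, and Batf3 from -0.12 to 0.16 in Tim-4low cells. In the tumor interaction Fosl1 ran from -1.69 to 1.44, Fosl2 from -0.20 to 0.26, Jun from -0.38 to 0.31 and Junb from -0.50 to 0.06, and Atf3 from -0.13 to 0.14 in the antibody interaction. Depth limits Fosl1, which had at most 67 counts over a group.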
